A study of Mus musculus with 4 samples.

Results

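Mpo, Elane, Prtn3, Ctsg, Ngp, Camp, Ltf, Lcn2, S100a8 and S100a9 encode proteins that neutrophils store in their granules or carry in their cytosol. These 10 genes, of 35798 named in the count table, were picked by symbol, and the choice was made with their levels in wild-type and TNFR2 KO libraries already known. Those levels are therefore given as a description, without a test. The libraries were made from cells sorted as Ly49H+ NK cells, and Ly49H is the activating receptor through which NK cells see mouse cytomegalovirus (MCMV).

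The study asked what the loss of TNFR2, a receptor for TNFα, does to NK cells in an infection. Donor NK cells of wild-type mice, marked by CD45.1, and of TNFR2 KO mice, marked by CD45.2, were given together to NSG mice, which were infected with MCMV, and spleen cells were sorted on day 3.5 of infection. Each genotype had 2 libraries, and a wild-type and a TNFR2 KO library with the same number came from a single pool of spleens from 3 hosts. All hosts, and so both groups, were infected and carried the NSG deficiency of T, B and NK cells, which leaves granulocytes and monocytes in place. The spleen cells were first enriched by negative selection and then sorted by Ly49H and either CD45 allele. Genotype, CD45 allele and sort gate therefore changed together and cannot be told apart. The paper does not give the CD45 allele of the NSG hosts, and whether host cells entered either gate was not tested. TNFR2 KO donors were mice deficient in TNFR2, and the mice of the study were 6 to 12 weeks old. P-values measure the spread between the 2 libraries of each genotype. The paper describes a single experiment done in duplicate, so the p-values do not cover spread between experiments.

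Neutrophils fill their granules in sequence as they mature in the bone marrow. Promyelocytes make the primary (azurophil) granule proteins, among them myeloperoxidase and the serine proteases. Myelocytes and metamyelocytes then switch to the specific granule proteins, and the calcium-binding proteins S100a8 and S100a9 build up in the cytosol. Circulating neutrophils have shut off most primary granule genes and keep the protein, so transcripts of these genes are chiefly known from precursors. The granules of NK cells hold granzymes and perforin instead.

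PU.1, RUNX and C/EBP factors are known regulators of neutrophil granule genes, and the start of each gene was therefore read in the RefSeq sequence (GRCm38.p6). All 10 genes had a window of 300 bases, from 250 before to 50 after the start. The letters GGAAGT, an ETS core that PU.1 can bind, stood on either strand in the windows of all 4 primary granule genes and of S100a8 and S100a9, against 23.8% of 32851 mouse windows. The C/EBP letters TTNNGCAA stood in the windows of Ngp, Ltf, Lcn2 and S100a9, against 10.8% of windows, and in none of the 4 primary granule genes. The RUNX letters TGTGGT (Ctsg, Ltf and S100a9, 16.8% of windows) and the TATA letters TATAAA (Ctsg, S100a8 and S100a9, 13.6%) were each in 3 windows. Camp had none of the 4 motifs, and no match overlapped another. A match is a description of the letters and not of binding. The 60 bases around the GGAAGT match of each primary granule gene and around a C/EBP match of Ngp and Ltf are shown, since the first motif was in every primary granule gene and the second in most of the specific granule genes. Each is written 5′ to 3′ on the strand of its gene, with the match in capitals. Distances are counted from the RefSeq start. The GENCODE gene models used for the gene positions further on begin before that start for all of these but Ctsg, and the Prtn3 stretch lies inside its gene model, outside exons. The last 14 bases printed for Mpo and the last 15 for Elane lie in GENCODE exons, and the other stretches hold no exon bases.
Mpo, chr11:87793535-87793594, plus strand, match 222 bases before the start: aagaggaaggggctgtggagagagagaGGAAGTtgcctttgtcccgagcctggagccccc
Elane, chr10:79886202-79886261, plus strand, match 83 bases before: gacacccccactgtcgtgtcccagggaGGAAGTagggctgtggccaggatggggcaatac
Prtn3, chr10:79879547-79879606, plus strand, match 93 bases before: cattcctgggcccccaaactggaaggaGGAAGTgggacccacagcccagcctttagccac
Ctsg, chr14:56102747-56102806, minus strand, match 205 bases before: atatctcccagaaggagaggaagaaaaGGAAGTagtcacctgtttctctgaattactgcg
Ngp, chr9:110419644-110419703, plus strand, match 138 bases before: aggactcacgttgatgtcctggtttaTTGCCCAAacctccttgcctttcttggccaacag
Ltf, chr9:111019191-111019250, plus strand, match 75 bases before: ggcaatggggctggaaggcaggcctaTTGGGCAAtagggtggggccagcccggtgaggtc

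The libraries held 32713054 to 39543464 counts each, and levels are given as CPM, the count of a gene against a common library total, after TMM scaling, which equalises the bulk of genes between libraries. The targeted gene Tnfrsf1b (chr4:145213463-145246870, minus strand) stood at 265 and 269 CPM in the wild-type pair and at 55.1 and 58.6 CPM in the TNFR2 KO pair (log2-fold change -2.23, SE 0.0352, adjusted p = 1.35e-13, edgeR's quasi-likelihood test), so its transcript was 4.69-fold lower but not absent. NK lineage transcripts were read with 20 genes, whose sum was 6945 to 6969 CPM in the wild-type pair and 11983 to 12113 CPM in TNFR2 KO. Such a sum shows that these transcripts were present and does not measure the purity of the sort. Across the 13822 genes tested, the median log2-fold change was -0.003, with quartiles of -0.29 and 0.18. Scaling by those NK genes instead of TMM moved this median to -0.80, so any direction below that rests on a small difference depends on the scaling.

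All 10 granule genes passed the filter on low counts, and each was higher in both wild-type libraries than in either TNFR2 KO library. All 10 were among the lower calls used below for other genes (edgeR adjusted p under 0.05 and log2-fold change under -1), which took in 11.8% of tested genes. The choice of the 10 used this same contrast, so their count describes the choice and tests nothing. Summed over the 10 genes, the level was 933 ± 14.7 CPM in wild-type libraries and 81.9 ± 1.98 CPM in TNFR2 KO (SD, n = 2), an 11.4-fold difference. The median log2-fold change was -2.47, with a range from -7.77 for Elane to -1.84 for Lcn2. In a bulk sample, fewer cells that make these transcripts and less transcript in each cell cannot be told apart.

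Among the genes chosen here, the differences fell into separate ranges by granule class. The 4 primary granule genes were 51.4-fold to 209.7-fold lower in TNFR2 KO. The 4 specific granule genes were 3.57-fold to 6.33-fold lower, and S100a8 and S100a9 were 4.87-fold and 4.66-fold lower. Summed, the primary granule genes were at 559.6 ± 7.97 CPM in the wild-type pair and 6.64 ± 0.298 CPM in TNFR2 KO, an 84.3-fold difference. The 6 later genes summed to 373 ± 6.74 CPM and 75.3 ± 1.68 CPM, a 4.96-fold difference (SD, n = 2 in each case). Among the chosen genes, no fold of a primary granule gene overlapped that of a later gene. Other genes of these granules, described further below, did not separate in this way. Their median log2-fold changes were -2.08 for primary and -1.72 for specific and gelatinase granules. In the list of other primary granule genes, Cd63 was 20.0-fold lower, and Ms4a3, a membrane protein of granulocyte and monocyte precursors, was 57.9-fold lower. In the same list, Lyz2, Prss57 and Ctsc were 6.90-fold, 2.60-fold and 2.35-fold lower. Ms4a3, Cd63 and Prss57 were picked after their values were seen.

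**Figure D1:**
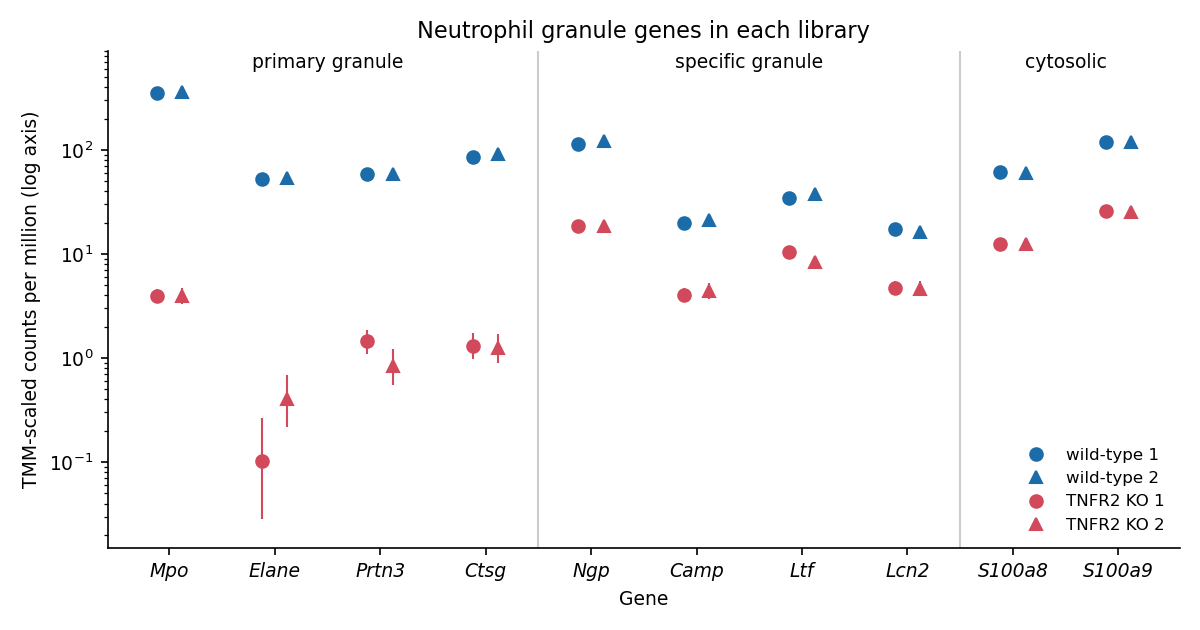
TMM-scaled CPM of the 10 genes (log axis) in each of the 4 libraries, grouped by granule class, with bars for exact 95% Poisson intervals, which cover counting error only. Primary granule genes lie at 52.6 to 361 CPM in wild-type libraries and at 0.103 to 3.98 CPM in TNFR2 KO, while the later genes lie at 16.3 to 121 CPM and 4.03 to 26.0 CPM.

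Mpo (chr11:87793581-87804413, plus strand, 14 exons) encodes myeloperoxidase, the haem enzyme that makes hypochlorous acid in the phagosome. In wild-type it was the most abundant of the 10 by counts, with 13484 and 13320 counts in wild-type and 154 and 126 counts in TNFR2 KO, where all 6 later genes had more. In CPM this was 356 and 361 against 3.98 and 3.93. The TNFR2 KO libraries were alike and held 1.10% of the wild-type level, a 90.6-fold difference (log2-fold change -6.50, SE 0.0469). By CPM, Mpo ranked 453 among all genes in wild-type and 9860 in TNFR2 KO. Of its 31-base stretches, the unit in which Kallisto matches reads, 12.1% were shared, mostly with the antisense annotation Gm11505. The counting is not stated to use strand, so their reads cannot be told apart there.

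Elane (chr10:79886247-79888215, plus strand, 5 exons) encodes neutrophil elastase, a serine protease that cleaves elastin and bacterial proteins. Its levels were 52.6 and 54.2 CPM in wild-type libraries and 0.103 and 0.406 CPM in TNFR2 KO, the widest difference of the 10. The TNFR2 KO values rested on 4 and 13 counts, whose exact 95% Poisson intervals were 1.09 to 10.2 and 6.92 to 22.2 counts. The 209.7-fold difference of the means was 508-fold in pool 1 and 134-fold in pool 2. The log2-fold change of -7.77 (SE 0.162) became -7.02 without TNFR2 KO replicate 1 and -8.96 without TNFR2 KO replicate 2, so its size depended on a few reads while the wild-type libraries held 1994 and 1999 counts.

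Prtn3 (chr10:79874476-79883174, plus strand, 5 exons) encodes proteinase 3, a relative of elastase and the main target of the autoantibodies in granulomatosis with polyangiitis. The libraries gave 59.3 and 58.5 CPM in the wild-type pair and 1.45 and 0.843 CPM in TNFR2 KO. The TNFR2 KO libraries held 56 and 27 counts and differed from each other more than those of Mpo or Ctsg did. The difference was 51.4-fold, from 40.9-fold in pool 1 to 69.4-fold in pool 2 (log2-fold change -5.65, SE 0.113). Of its 31-base stretches, 7.48% were shared, mostly with Plppr3.

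Ctsg (chr14:56099881-56102574, minus strand, 5 exons) encodes cathepsin G, a chymotrypsin-like protease of the same granule. Its levels were 86.6 and 91.3 CPM in wild-type libraries and 1.32 and 1.25 CPM in TNFR2 KO. The 51 and 40 counts that remained in TNFR2 KO were 1.44% of the wild-type level, a 69.3-fold difference (log2-fold change -6.11, SE 0.0827). Ctsg and the other primary granule genes were among the lowest log2-fold changes of the series, at rank 10 (Elane), 26 (Mpo), 28 (Ctsg) and 32 (Prtn3) of 13822.

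Ngp (chr9:110419747-110423012, plus strand, 4 exons) encodes neutrophilic granule protein, a cathelicidin relative. It had 115 and 121 CPM in the wild-type pair and 18.7 CPM in both TNFR2 KO libraries, so that 15.8% of the wild-type level remained. The 6.33-fold difference (log2-fold change -2.66, SE 0.0483) was the largest of the later genes and ranked 645 of 13822.

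Camp (chr9:109847379-109849617, minus strand, 4 exons) encodes the cathelicidin precursor, cleaved to an antimicrobial peptide. It was at 20.1 and 21.2 CPM in wild-type libraries and at 4.03 and 4.43 CPM in TNFR2 KO, a 4.88-fold difference (log2-fold change -2.29, SE 0.104). Ltf (chr9:111019271-111042767, plus strand, 17 exons) encodes lactoferrin, which binds iron. Its 34.9 and 37.4 CPM in wild-type compared with 10.4 and 8.30 CPM in TNFR2 KO, and it was the later gene with the widest gap between the TNFR2 KO libraries. The fold was 3.37 in pool 1 and 4.50 in pool 2 (log2-fold change -1.94, SE 0.0884).

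Lcn2 (chr2:32384633-32388252, minus strand, 5 exons) encodes lipocalin 2, which holds bacterial siderophores. It had 17.3 and 16.3 CPM in wild-type libraries and 4.76 and 4.65 CPM in TNFR2 KO, the smallest difference of the 10, with 28.0% of the wild-type level left (log2-fold change -1.84, SE 0.106). Apart from Mpo and Prtn3, none of the 10 genes shared a 31-base stretch with another gene.

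S100a8 (chr3:90668978-90670035, plus strand, 2 exons) and S100a9 (chr3:90692632-90695721, minus strand, 3 exons) encode the subunits of calprotectin, which binds calcium and withholds zinc and manganese from microbes. S100a8 was at 61.3 and 60.8 CPM in wild-type libraries and at 12.6 and 12.5 CPM in TNFR2 KO (log2-fold change -2.28, SE 0.0547). S100a9 was at 119.7 and 120.7 CPM in wild-type libraries and at 26.0 and 25.5 CPM in TNFR2 KO (log2-fold change -2.22, SE 0.0414). The proportion of the subunits was close in both genotypes, with 1.95 and 1.99 counts of S100a9 for each count of S100a8 in wild-type and 2.07 and 2.04 in TNFR2 KO.

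The make-up of the granule reads, which needs no scaling between libraries, differed between genotypes. Primary granule genes took 60.1% and 59.9% of the summed level of the 10 genes in wild-type and 8.22% and 7.99% in TNFR2 KO. Specific granule genes took 20.3% and 20.8% in wild-type and 45.4% and 44.8% in TNFR2 KO, and S100a8 with S100a9 took 19.6% and 19.2% against 46.3% and 47.2%. For each count of S100a9 there were 2.97 and 2.99 counts of Mpo in wild-type and 0.153 and 0.154 in TNFR2 KO.

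**Figure D2:**
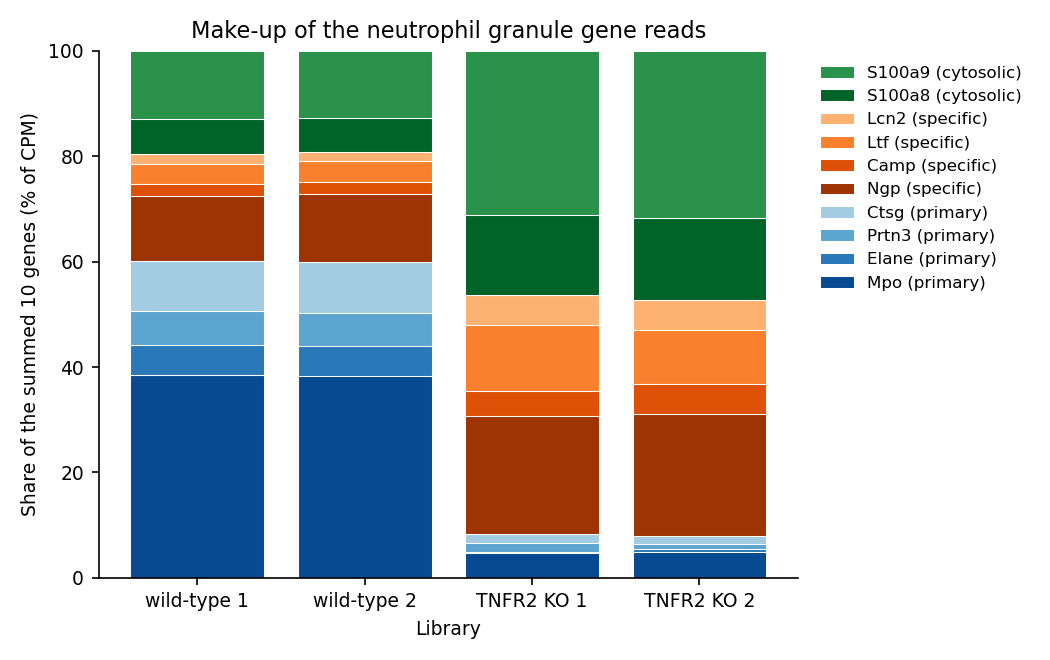
Share (%) of the summed CPM of the 10 genes that each gene took in each of the 4 libraries, as stacked bars from 0 to 100. Libraries of a genotype were alike, and the blue primary granule segments, led by Mpo, took 59.9% to 60.1% of the bar in wild-type and 7.99% to 8.22% in TNFR2 KO.

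Within a class the proportions moved less. Mpo was 64.2% and 63.9% of the primary granule level in wild-type and 58.1% and 61.2% in TNFR2 KO. For each count of Camp there were 5.73 and 5.72 counts of Ngp in wild-type and 4.63 and 4.21 in TNFR2 KO. Proportions that involved Elane or Prtn3 were exceptions. Prtn3 was 10.7% and 10.3% of the primary granule level in wild-type and 21.1% and 13.1% in TNFR2 KO. Elane was 9.49% and 9.59% of the primary granule level in wild-type and 1.51% and 6.31% in TNFR2 KO, where it had 4 and 13 counts. Prtn3 against Elane stood at 1.13 and 1.08 counts in wild-type and at 14.0 and 2.08 in TNFR2 KO. The reads of all 10 genes were 0.0942% and 0.0962% of the wild-type libraries and 0.00815% and 0.00788% of the TNFR2 KO libraries.

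Levels of different genes were compared per length, as TPM, the count divided by the length of the longest annotated transcript and brought to a common total. In wild-type the order was S100a9 (mean 549.7 TPM), Mpo (309), S100a8 (291), Ngp (229), Ctsg (211), Prtn3 (136), Elane (129), Camp (64.6), Ltf (31.3) and Lcn2 (29.0 TPM), and no neighbours overlapped between the 2 libraries. In TNFR2 KO the order was S100a9 (mean 111 TPM), S100a8 (56.4), Ngp (34.2), Camp (12.5), Lcn2 (7.67), Ltf (7.62), Mpo (3.22), Ctsg (2.87), Prtn3 (2.50) and Elane (0.581 TPM). Lcn2 and Ltf overlapped there, as did Ctsg and Prtn3. The later genes thus kept their order except for Lcn2 and Ltf, and all 4 primary granule genes stood below all 6 later genes in TNFR2 KO. The level of Lcn2 over that of Ltf in wild-type was 0.928 by the longest transcript and 1.39 by the longest coding transcript, so their order depended on the transcript taken.

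**Figure D3:**
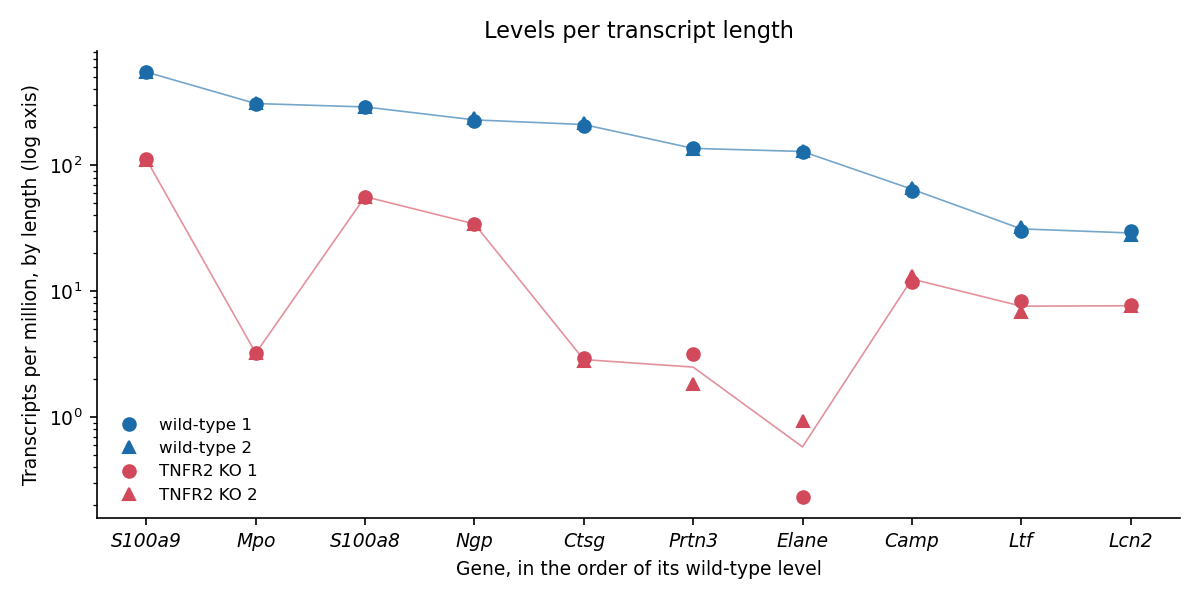
TPM by the longest annotated transcript (log axis) of the 10 genes in the 4 libraries, with genes in the order of their wild-type level and lines through the mean of each genotype. The TNFR2 KO line drops at Mpo (3.22 TPM), Ctsg (2.87 TPM), Prtn3 (2.50 TPM) and Elane (0.581 TPM), between later genes at 7.62 to 111 TPM.

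Other genes of the same granules were lower too, with exceptions. Of 8 tested genes among 9 other primary granule genes, 6 were lower past both thresholds and none was higher, with a median log2-fold change of -2.08. The 6 include Ms4a3, which encodes a membrane protein of granulocyte and monocyte precursors. Over all tested genes, 11.8% were lower and 1.56% higher past both thresholds. These shares apply to every list below, and at 1.56% a short list with none higher says little. All lists were chosen with earlier results of these data known. Lyz2, the lysozyme of myeloid cells including macrophages, fell from 771 and 778 CPM to 114 and 110.4 CPM (log2-fold change -2.79, adjusted p = 3.19e-15, edgeR's quasi-likelihood test), with 32.8% of its 31-base stretches shared, mostly with Lyz1. Ctsc, which encodes the peptidase that activates the granule serine proteases and also the granzymes, fell from 530.3 and 546 CPM to 232 and 226 CPM (-1.23, adjusted p = 2.37e-12, edgeR). Srgn, the granule proteoglycan serglycin shared with NK cells, was at 456 and 461 CPM against 431 and 409 CPM (log2-fold change -0.13, adjusted p = 0.00288, edgeR). Scaled on NK lineage genes, Srgn was at -0.92. Bpi had too few counts to be tested.

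Of 13 tested genes among 15 other specific and gelatinase granule genes, 8 were lower past both thresholds and none was higher (median -1.72). The 3 most abundant were not among the 8, and NK cells are known to make all 3. Itgb2, the integrin beta chain CD18, was at 1441 and 1437 CPM in the wild-type pair and 1906 and 1937 CPM in TNFR2 KO (log2-fold change 0.42, adjusted p = 4.52e-09, edgeR), but at -0.38 when scaled on NK lineage genes. Itgam, the alpha chain CD11b, was at 368 and 370.3 CPM against 707 and 706 CPM (0.94, adjusted p = 6.82e-12, edgeR), or 0.14 when scaled on NK lineage genes, and 68.3% of its 31-base stretches were shared, mostly with Gm49368. Cyba, a membrane subunit of the phagocyte oxidase, was at 298 and 302 CPM against 296 and 303 CPM (0.00, adjusted p = 0.988, edgeR), or -0.79 when scaled on NK lineage genes. Neither Fcnb nor Orm1 had enough counts to be tested.

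Among 16 genes of mature neutrophils, 15 were in the table and 12 were tested, of which 10 were lower past both thresholds and none higher (median -2.04). Csf3r, the G-CSF receptor that drives neutrophil production, fell from 79.7 and 75.5 CPM to 12.7 and 12.3 CPM (-2.63, adjusted p = 1.65e-12, edgeR), with 23.1% of its 31-base stretches shared. Cxcr2, the chemokine receptor by which neutrophils leave the marrow, fell from 24.3 and 24.2 CPM to 6.67 and 5.87 CPM (-1.94, adjusted p = 3.08e-09, edgeR). Of its 31-base stretches, 12.1% were shared, mostly with Churc1.

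Ly6g, the surface marker that defines mouse neutrophils and named here after its values were seen, was low in all libraries, at 3.27 and 3.93 CPM in wild-type libraries and 1.68 and 1.87 CPM in TNFR2 KO (log2-fold change -1.02, adjusted p = 0.00124, edgeR). Its change was -0.87 without wild-type replicate 2 and -0.93 without TNFR2 KO replicate 1, short of the threshold of 1. Stfa1 was at 0 in all 4 libraries.

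**Figure D4:**
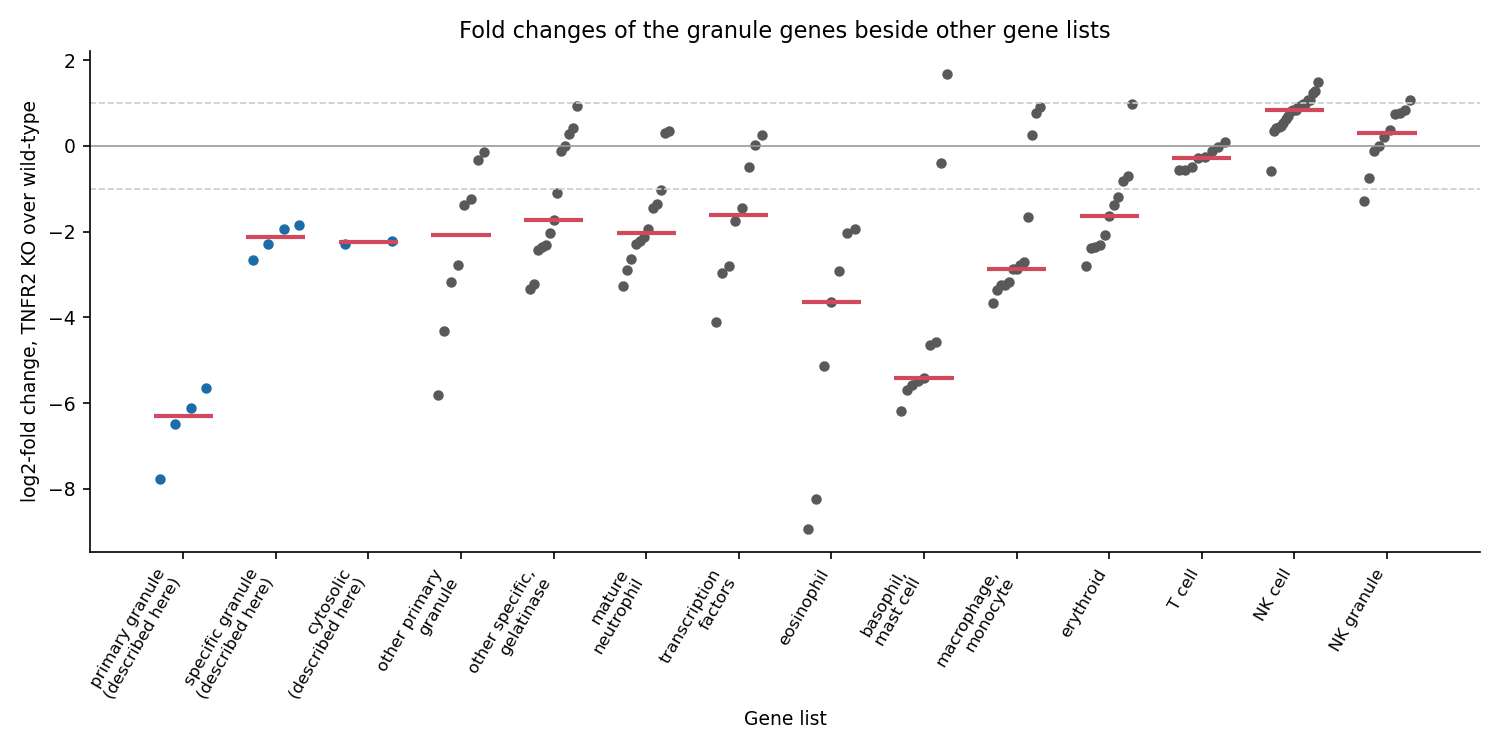
Log2-fold change, TNFR2 KO over wild-type, of each tested gene (points) in the 3 classes of granule genes described here (blue) and in 11 other gene lists (grey), with red bars for medians and dashed lines at the thresholds of 1 and -1. The primary granule genes in blue lie at -7.77 to -5.65, the later granule genes in blue at -2.66 to -1.84, and NK cell genes around a median of 0.85.

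Transcription factors of the granulocyte line were examined next, and 5 of 8 were lower past both thresholds, with none higher (median -1.60). Runx1, active across blood lineages, was at 138 and 138 CPM in the wild-type pair and 138 and 144 CPM in TNFR2 KO (log2-fold change 0.03, adjusted p = 0.54, edgeR), or -0.77 when scaled on NK lineage genes. Gfi1, a repressor needed for neutrophil maturation, was at 62.0 and 56.7 CPM against 69.9 and 72.1 CPM (0.26, adjusted p = 0.000764, edgeR), or -0.53 when scaled on NK lineage genes. Cebpb, which drives granulocyte output in infection, fell from 84.8 and 84.2 CPM to 31.7 and 29.8 CPM (-1.46, adjusted p = 7.05e-11, edgeR). Of its 31-base stretches, 19.6% were shared, mostly with Tmem189. The remaining lower factors were Cebpa (-4.11), Spi1, which encodes PU.1 (-2.97), Cebpe (-2.81) and Cebpd (-1.75), named after their values were seen as the factors tied to the motifs above.

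Of 11 genes for inhibitors of the granule proteases, 5 were tested, and 2 were lower and 1 higher past both thresholds (median 0.34). Serpinb6a, an inhibitor of cathepsin G, was at 56.0 and 53.0 CPM in wild-type libraries and 69.9 and 68.5 CPM in TNFR2 KO (log2-fold change 0.34, adjusted p = 3.19e-05, edgeR), or -0.45 when scaled on NK lineage genes. Of its 31-base stretches, 29.0% were shared, mostly with 1110046J04Rik. Serpinb1a, an inhibitor of elastase, proteinase 3 and cathepsin G in the neutrophil cytosol, fell from 49.9 and 46.0 CPM to 8.63 and 9.43 CPM (-2.41, adjusted p = 3.69e-11, edgeR). Slpi, a secreted inhibitor of elastase, fell from 13.8 and 14.1 CPM to 2.51 and 1.81 CPM (-2.68, adjusted p = 1.8e-08, edgeR). The higher gene, Serpinb1c, had under 1 CPM in every library (2.02, adjusted p = 0.0316, edgeR). It lost its call with DESeq2, with NK lineage scaling and without wild-type replicate 1, wild-type replicate 2 or TNFR2 KO replicate 2. Its adjusted p was then 0.16, 0.123, 0.0513, 0.241 and 0.265 in that order. The 5 plasma inhibitor genes Serpina1a, Serpina1b, Serpina1c, Serpina1e and A2m were at 0 in all libraries.

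Of 7 receptors for the granule proteins, 6 were tested, and 4 were lower past both thresholds with none higher (median -3.18). Lrp1, a scavenger receptor that takes up lactoferrin and protease complexes, fell from 103 and 97.4 CPM to 10.5 and 11.8 CPM (log2-fold change -3.18, adjusted p = 7.57e-13, edgeR). Fpr2, the receptor for the cathelicidin peptide, fell from 34.8 and 34.7 CPM to 3.23 and 3.40 CPM (-3.39, adjusted p = 6.01e-12, edgeR), and 43.0% of its 31-base stretches were shared. Tlr4, a receptor for S100a8 with S100a9, fell from 26.3 and 24.8 CPM to 14.4 and 13.9 CPM, a smaller change that did not reach the fold threshold (-0.85, adjusted p = 6.56e-07, edgeR). Scaled on NK lineage genes, Tlr4 was at -1.65, past both thresholds.

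The granule genes of NK cells themselves were read beside them. Of 10 genes, 1 was lower and 1 higher past both thresholds (median 0.30), against 11.8% and 1.56% of all tested genes. At an adjusted p under 0.05 alone, 2 were lower and 6 higher, against 26.2% and 24.2% of all tested genes. Gzma, granzyme A, rose from 5831 and 5779 CPM to 12387 and 12140.3 CPM (log2-fold change 1.08, adjusted p = 1.08e-13, edgeR), or 0.29 when scaled on NK lineage genes. Gzmb, granzyme B, was at 3894 and 3859 CPM against 6589 and 6491 CPM (0.75, adjusted p = 3.07e-12, edgeR), or -0.04 by that scaling. Prf1, perforin, was at 1368 and 1386 CPM against 2431 and 2478 CPM (0.83, adjusted p = 6.17e-12, edgeR), or 0.04. Lamp1, a lysosome membrane protein found in most cells, fell from 296 and 285 CPM to 119 and 119 CPM (-1.29, adjusted p = 4.04e-12, edgeR).

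Markers of other blood cells were read in the same libraries, since they could accompany the granule genes, and their part in the result was not tested. Calls of markers are past both thresholds unless stated, against 11.8% lower and 1.56% higher of all tested genes. The basophil and mast cell list summed to 1206 to 1210.2 CPM in the wild-type pair and 95.9 to 96.7 CPM in TNFR2 KO, with 7 of 9 tested genes lower and 1 higher. Its most abundant genes, Prss34 and Mcpt8, encode proteases of basophil granules and had log2-fold changes of -6.18 (adjusted p = 3.15e-16, edgeR) and -5.57 (adjusted p = 1.49e-15, edgeR). The eosinophil list summed to 49.6 to 50.9 CPM and 4.60 to 4.87 CPM, and all 7 tested genes were lower. Epx, the eosinophil peroxidase related to Mpo, was at 16.4 and 14.9 CPM in wild-type libraries and at 0 and 0.0624 CPM in TNFR2 KO.

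Blood progenitor genes were lower for 7 of 10 and higher for none (median -2.0), with sums of 202 to 204 CPM in wild-type libraries and 117 to 118 CPM in TNFR2 KO. This list repeats some of the factors named above, and Ms4a3 and Prss57 of the other primary granule list, so its count overlaps theirs. Macrophage and monocyte genes were lower for 10 of 13 and higher for none (median -2.87), with sums of 1573 to 1608 CPM and 1177 to 1197 CPM. The most abundant of these, Ccr2 and Ly6c2, which NK cells can also make, had log2-fold changes of 0.78 and 0.26. Megakaryocyte genes were lower for 5 of 6, with sums of 39.2 to 41.4 CPM and 4.42 to 5.46 CPM, and erythroid genes for 8 of 11, with sums of 462 to 467 CPM and 402 to 409 CPM. Car2, the most abundant erythroid gene, was at 171 CPM in both wild-type libraries and at 342 and 331 CPM in TNFR2 KO. Hba-a1, the next most abundant, fell from 125 and 131 CPM to 24.7 and 24.1 CPM. Dendritic cell genes were lower for 5 of 9 and higher for 1, with sums of 2134 to 2162 CPM and 1032 to 1057 CPM. Of 8 T cell genes, 6 were lower and 1 higher at an adjusted p under 0.05, each short of the fold threshold (26.2% and 24.2% of all tested genes met that p alone), with sums of 956 to 957 CPM and 783 to 789.8 CPM. B cell genes summed to 3.22 to 3.36 CPM and 2.46 to 2.53 CPM.

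The genes whose pattern over the 4 libraries was nearest to the mean pattern of the 10 were sought among 8657 other genes, by the root mean square distance of centred log2 (CPM + 0.5). They were Ccl6 (distance 0.0397), a myeloid chemokine, Csf2rb (0.0409), the shared receptor chain for GM-CSF, IL-3 and IL-5, F10 (0.0558), a coagulation factor, C3 (0.0635), the central complement protein, and Eno1b (0.0822), an enolase. Ccl6 was at 119 and 116 CPM in the wild-type pair and 9.38 and 8.58 CPM in TNFR2 KO. Csf2rb was at 235 CPM in both wild-type libraries and 17.6 CPM in both TNFR2 KO libraries, and C3 at 292 and 291 CPM against 25.2 and 25.3 CPM. These folds lay between those of the primary and the later granule genes among the 10. The mean pattern they were matched to, with a difference of 3.62 log2 units, lies there too, so their place follows from the search. With 2 points for each genotype, closeness here means a like fold. Of the 31-base stretches of Csf2rb, 19.7% were shared, mostly with Csf2rb2. Of those of Eno1b, 89.2% were shared, mostly with Eno1, so the value of Eno1b is uncertain.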

How the data were processed

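Poly-A RNA of 4 libraries was sequenced on stranded libraries. The authors trimmed reads with Trimmomatic 1.4, matched them to mm10 transcripts with kallisto 0.46.1 and summed them per gene with Tximport, and deposited the estimated counts per gene symbol without scaling. The transcript annotation, not given in the sources used here, may differ from the one below. Counts were rounded, a row without a gene name (0.0559% to 0.0728% of counts) was left out, and genes were tested with edgeR 4.0.16 (R 4.3.3): filterByExpr, TMM, prior count 0.125, quasi-likelihood test, genotype as the only term, Benjamini-Hochberg adjustment over 13822 genes, and calls at adjusted p under 0.05 and absolute log2-fold change over 1. Totals of 32713054 to 39543464 counts and a biological coefficient of variation of 3.33% set the precision. Permuting 2 libraries against 2 exactly gives no two-sided p below 0.333 for 1 gene.

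The 10 genes and all gene lists were chosen with earlier results of these data known. Besides the 10, the text names Tnfrsf1b, the 3 most abundant genes of each granule, factor, inhibitor and receptor list and any called against the list's direction, at most the 2 most abundant of each marker list, and the 5 genes of nearest pattern (mean of at least 10 CPM, outside all lists). Others are named as chosen after their values were seen. A gene that this rule names, and the summed level of the mature neutrophil list, are not reported here. Gene positions, transcript lengths and 31-base stretches came from GENCODE M21 (GRCm38), which matched 32846 of 35798 symbols and stands in for the authors' annotation, and promoter sequences from RefSeq (GRCm38.p6). The labels state that same-numbered libraries share a spleen pool, so they were treated as paired in an alternative fit with a replicate block. Over genes, the deviations of a same-numbered pair from its group means correlated at 0.0487. Replicates of a genotype differed by more than sampling noise (chi-square per gene 3.29 and 3.49), so none was a repeated deposit. Alternatives were DESeq2 1.42.0, 4 other scalings, 2 other filters, the replicate block, each library left out in turn and, chosen after seeing the data, another transcript length. The steps were tested on simulated counts. Python 3.11.15, pandas 2.3.3, SciPy 1.17.1 and matplotlib 3.10.9 were used.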

Additional observations from a re-analysis of the deposited data

How the results depend on the processing

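The median log2-fold change of the 10 granule genes (-2.47), a description of genes chosen on this contrast, was -2.54 with library size alone, -3.27 with NK lineage scaling, -2.51 with a mean of at least 10 CPM, and -2.51 to -2.45 with a library left out. NK lineage scaling gave 3881 lower and 28 higher genes (99.3% lower in place of 88.3%) and 0 higher NK granule genes. The filter at 10 CPM tested 8763 genes and, by its construction, left 420 lower and 58 higher genes, and lower counts of 3 specific granule genes, 2 mature neutrophil genes, 3 transcription factors and 1 protease inhibitor. With a library left out, 1431 to 1659 genes were lower and 208 to 219 higher. DESeq2 gave 1415 and 154. The replicate block gave 1616 lower and 214 higher genes and changed no call of the lists in the text. Without wild-type replicate 2, Lyz1 (adjusted p = 0.0648, edgeR) and Stfa2l1 (adjusted p = 0.0582, edgeR) lost their calls. By the longest coding transcript, Lcn2 over Ltf was 1.39 per length. Depth limited Elane most, with 4 and 13 counts in TNFR2 KO.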

Other observations

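Further genes that the granule lists count are given here, some with wide differences and some without. Ms4a3, a membrane protein of granulocyte and monocyte precursors, was at 26.4 CPM in both wild-type libraries and at 0.569 and 0.343 CPM in TNFR2 KO (log2-fold change -5.81, adjusted p = 1.22e-11, edgeR's quasi-likelihood test), a fold within the range of the primary granule genes. Cd63, a tetraspanin of primary granule membranes that other cells also carry, was at 32.3 CPM in both wild-type libraries and 1.45 and 1.78 CPM in TNFR2 KO (-4.33, adjusted p = 6.01e-12, edgeR), with 15.9% of its 31-base stretches shared, mostly with Cd63-ps. Among specific granule genes, Hp, which encodes haptoglobin, fell from 30.5 and 34.0 CPM to 6.33 and 5.65 CPM (-2.42, adjusted p = 3.26e-10, edgeR), and Cd177, a neutrophil surface protein, from 16.5 and 15 CPM to 4.39 and 3.25 CPM (-2.03, adjusted p = 1.16e-07, edgeR). Pglyrp1, a peptidoglycan-binding protein of specific granules, stood at 98.1 and 97.3 CPM in wild-type and 119 and 119 CPM in TNFR2 KO (0.29, adjusted p = 1.31e-05, edgeR), or -0.51 when scaled on NK lineage genes. In the list of other primary granule genes, which also counts Ms4a3, Prss57 (-1.37, adjusted p = 2.14e-05, edgeR) and Gusb (-0.32, adjusted p = 1.09e-05, edgeR) differed far less than Ms4a3 or Cd63. Scaled on NK lineage genes, Gusb was at -1.11. Of the 31-base stretches of Prss57, 39.3% were shared, mostly with Fstl3. All genes of this paragraph were named after their values were seen.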
